A study of Rattus norvegicus with 156 samples.

Results

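The receptors and ligands of the neurotrophin and glial cell line-derived neurotrophic factor (GDNF) families were followed through 52 RNA pools of the rat nervous system. The members were every probe set annotated to Ngfr, Ntrk2, Ntrk3, Gfra1, Gfra2, Ret, Bdnf or Gdnf. A probe set is the group of short array probes that together give 1 signal for a transcript. There were 23 such probe sets for the 8 genes, among 26202 probe sets and 10969 named genes in all. Bdnf had 7 of them, Ntrk2, Gfra2 and Ret had 3 each, Ngfr, Ntrk3 and Gfra1 had 2 each, and Gdnf had 1. All but 2 were on array A of the Affymetrix rat U34 set, and Ntrk2 probe set 1 and Gfra2 probe set 3 were on array B. The probe sets of a gene are numbered from the strongest to the weakest mean signal.

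The rats had the L5 and L6 spinal nerves of 1 side tied off (spinal nerve ligation, SNL), a model of neuropathic pain in which L4 keeps an intact spinal nerve, and tissue was taken 19 to 21 days later. The pools labelled SNL came from ligated rats that received saline, and those labelled SNL+GPN from ligated rats that received 100 mg/kg gabapentin (GPN) into the abdomen daily for 7 days; ligated rats entered the study after a drop in the paw withdrawal threshold on that side. The pools without ligation were Naive (no surgery, saline), Naive+GPN (no surgery, gabapentin) and Sham (nerves exposed but not tied, saline). Each pool held RNA of 4 to 6 rats from 1 treatment and 1 tissue, with no strain, sex or age in the sources used here. The tissues were the dorsal root ganglia (DRG) of L4, L5 and L6, mid-thigh sciatic nerve and divided spinal cord, taken separately from the injured (ipsi) and the uninjured (contra) side, and whole brain. Each treatment had at most 1 pool per tissue and side, and 2 ligated pools were set against 3 pools without ligation where all were present. The contralateral L5 and L6 ganglia had 2 pools a group, and the contralateral nerve had 1 ligated pool. P values therefore measure the spread between treatments that share or lack the ligation, and a shared effect of surgery cannot be told apart from ligation beyond the 1 Sham pool.

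The neurotrophins, among them brain-derived neurotrophic factor (Bdnf), act on Trk receptor tyrosine kinases and on Ngfr, a death-domain receptor that binds all of them. Ntrk2 encodes TrkB, the receptor of Bdnf, and Ntrk3 encodes TrkC, the receptor of neurotrophin-3. GDNF-family ligands bind a co-receptor anchored in the membrane by a lipid, Gfra1 for Gdnf itself and Gfra2 for neurturin, and the bound pair activates the kinase Ret. In sensory ganglia Ret and Gfra2 mark mainly small neurons, whereas Schwann cells that have lost contact with axons are known for making Ngfr, Gfra1 and Bdnf.

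Without ligation, the DRG gave far more Ret and Ngfr signal than the nerve, and Gfra1 was at a like level in both tissues. Ret probe set 1 averaged 399 ± 30.7 in DRG, 20.6 ± 3.37 in nerve, 19.7 ± 4.98 in brain and 63.8 ± 12.9 in spinal cord (SD, n = 3 treatments, in arbitrary signal units as throughout). Over the single pools this probe set ran from 286 to 520 with a median of 412 in the 16 DRG pools, and it ran from 12.3 to 39.8 with a median of 18.1 in the 6 nerve pools. The DRG and nerve pools did not overlap. Ret probe set 2 behaved alike, with means of 265 ± 5.46 in DRG and 10.5 ± 3.43 in nerve. On both probe sets the means of nerve and brain were each below that of spinal cord.

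The low-affinity receptor Ngfr had means of 800.3 ± 41.7 in DRG, 102 ± 7.28 in nerve, 64.1 ± 12.7 in brain and 79.3 ± 19.1 in spinal cord on probe set 1. Its lowest DRG pool stood at 579 and its highest nerve pool at 133. The second Ngfr probe set carries the manufacturer's mark for probes that may also match related sequences, and its means lay closer together, at 194 ± 17.7 in DRG and 92.5 ± 16.6 in nerve. On probe set 1 neither nerve (adjusted p = 0.0767) nor brain (0.296) passed against cord. The log2 difference of DRG minus nerve was 2.90 (SE 0.16) on the first probe set and 1.03 (SE 0.14) on the second.

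Over all member probe sets, 12 were higher and 1 was lower in DRG than in nerve (limma, Benjamini-Hochberg adjusted p below 0.05 over all probe sets), of 20 that could be tested, and 48.8% of all probe sets tested passed in that comparison. The largest differences were those of Ret probe set 2 (log2 4.06, SE 0.20, adjusted p = 1.29e-09) and Ret probe set 1 (log2 3.93, SE 0.17, adjusted p = 5.09e-10). Some of the 12 were above the filter on low signals in every ipsilateral DRG pool without ligation but hardly in nerve. Ret probe set 1, Ntrk2 probe set 2 and Bdnf probe sets 2 and 4 were above it in 0 of 3 such ipsilateral nerves. Ret probe set 2 was above it in 1. They entered the test through tissues where they were high, so their p values against nerve lend no support. The exception was Ntrk3 probe set 1, which was lower in DRG by 1.63 on the log2 scale (a difference of -1.63, SE 0.41, adjusted p = 0.00436). It averaged 41.8 ± 4.61 in DRG, 156 ± 89.2 in nerve, 31.1 ± 15.0 in brain and 30.9 ± 15.1 in spinal cord. The nerve values were uneven, at 382, 123 and 92.2 in the Naive, Naive+GPN and Sham ipsi pools and at 170, 138 and 74.8 in their contra pools. The summed signal of 7 skeletal muscle markers in the same pools was 20803, 12049 and 10485 (ipsi) and 29013, 7852 and 6453 (contra), and its part in the Ntrk3 values was not tested. The GAPDH 3′ to 5′ signal ratio, a measure of RNA integrity, was 7.38, 1.60 and 3.80 (ipsi) and 2.07, 2.91 and 3.20 (contra) there. In the DRG pools without ligation it ran from 1.13 to 1.49, except 3.16 in the Sham contra L4 pool. Its part in the tissue differences was not tested.

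TrkB had another order. Ntrk2 probe set 2 averaged 62.3 ± 2.26 in DRG, 6.20 ± 2.43 in nerve, 139 ± 19.9 in brain and 74.2 ± 2.63 in spinal cord. Brain stood above spinal cord (log2 0.84, SE 0.15, adjusted p = 0.00102), DRG and spinal cord did not pass the test (log2 -0.23, SE 0.15, adjusted p = 0.289), and DRG stood above nerve (log2 2.51, SE 0.15, adjusted p = 1.01e-08). The p value against nerve lends no support, because of the filter as described above. On Ntrk2 probe set 1, which lies on array B, the nerve was closer to the rest, at 114 ± 14.4 in DRG, 79.7 ± 3.98 in nerve, 171 ± 5.97 in brain and 170 ± 9.13 in spinal cord. Its DRG signal was lower than that of the cord (log2 -0.57, SE 0.11, adjusted p = 0.00119). By contrast, 11 other member probe sets were higher in DRG than in cord, and 27.3% of all probe sets tested differed there. Bdnf probe sets 2 and 4 are among the 11 but were above the filter in no ipsilateral cord. They entered the test through other tissues, so their p values against cord lend no support.

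Gfra1, the GDNF-binding co-receptor, was lowest in brain. Probe set 1 averaged 171 ± 13.2 in DRG, 154 ± 7.59 in nerve, 34.8 ± 2.18 in brain and 72.4 ± 6.85 in spinal cord. DRG and nerve did not pass the test (log2 0.14, SE 0.11, adjusted p = 0.315), nerve was higher than cord (log2 1.03, SE 0.11, adjusted p = 2.56e-06; log2 0.40 and adjusted p = 0.0631 with the deposited scaling) and brain was lower than cord (log2 -0.94, SE 0.11, adjusted p = 3.08e-05). The neurturin co-receptor Gfra2 was higher in DRG than in nerve on all of its 3 probe sets, with probe set 1 at 178 ± 2.49 in DRG, 85.0 ± 16.4 in nerve, 61.1 ± 6.83 in brain and 66.6 ± 13.8 in spinal cord (log2 1.03 for DRG minus nerve, SE 0.16, adjusted p = 8.23e-05). Gfra2 probe set 3 was above the filter on low signals in only 1 ipsilateral nerve without ligation, though in 48 of the 52 pools. In the nerve against the cord, 4 member probe sets were higher and 7 lower (1 and 11 with the deposited scaling, 5 and 5 with median scaling), where 50.2% of all probe sets passed. Ret probe sets 1 and 2, Ntrk2 probe set 2 and Bdnf probe set 4 are among the 7. Their p values lend no support, because of the filter as described above. In the brain against the cord 3 were higher and 4 lower, where 19.4% passed. The 3 include Bdnf probe sets 2 and 4, which were above the filter in no ipsilateral cord, so their p values lend no support either.

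The ligands were weak, and the Bdnf probe sets disagreed. Bdnf probe set 1, the strongest, was above the filter in 51 of 52 pools. It averaged 53.2 ± 4.82 in DRG, 42.7 ± 2.93 in nerve, 35.5 ± 5.90 in brain and 33.6 ± 21.5 in spinal cord. Its DRG and nerve values did not pass the test. Probe set 4 averaged 36.1 ± 2.58 in DRG, 2.24 ± 1.60 in nerve, 24.2 ± 6.45 in brain and 6.67 ± 3.50 in spinal cord. The DRG was higher than the nerve by 2.37 on the log2 scale (SE 0.23, adjusted p = 1.58e-06). That p value lends no support, because of the filter as described above. Probe set 2 had the same order of tissues, with 45.5 ± 6.10 in DRG, 10.9 ± 0.851 in nerve, 31.5 ± 6.03 in brain and 12.8 ± 3.81 in spinal cord. Across the 52 pools those probe sets had a Pearson r of 0.89, as a description over pools that share tissues. Probe set 3, marked by the manufacturer as an incomplete set of probes, had means of 25.1 ± 5.07 in DRG and 48.1 ± 4.56 in nerve, and its r with probe sets 2 and 4 was 0.01 and -0.07. Bdnf probe sets 2, 4 and 6 carry a mark as well, for probes shared by several transcripts. So do Gfra1 probe set 2, Gfra2 probe sets 2 and 3, Ntrk3 probe set 1 and the Gdnf probe set. Bdnf probe set 7 and Ntrk3 probe set 2 were not above the 40th percentile of their array in any pool, Ntrk2 probe set 3 was above it in 2 pools and the only Gdnf probe set in 11 of 52. Gdnf ran from 2.52 to 25.8 over all pools, and no comparison of it passed a test.

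**Figure D1:**
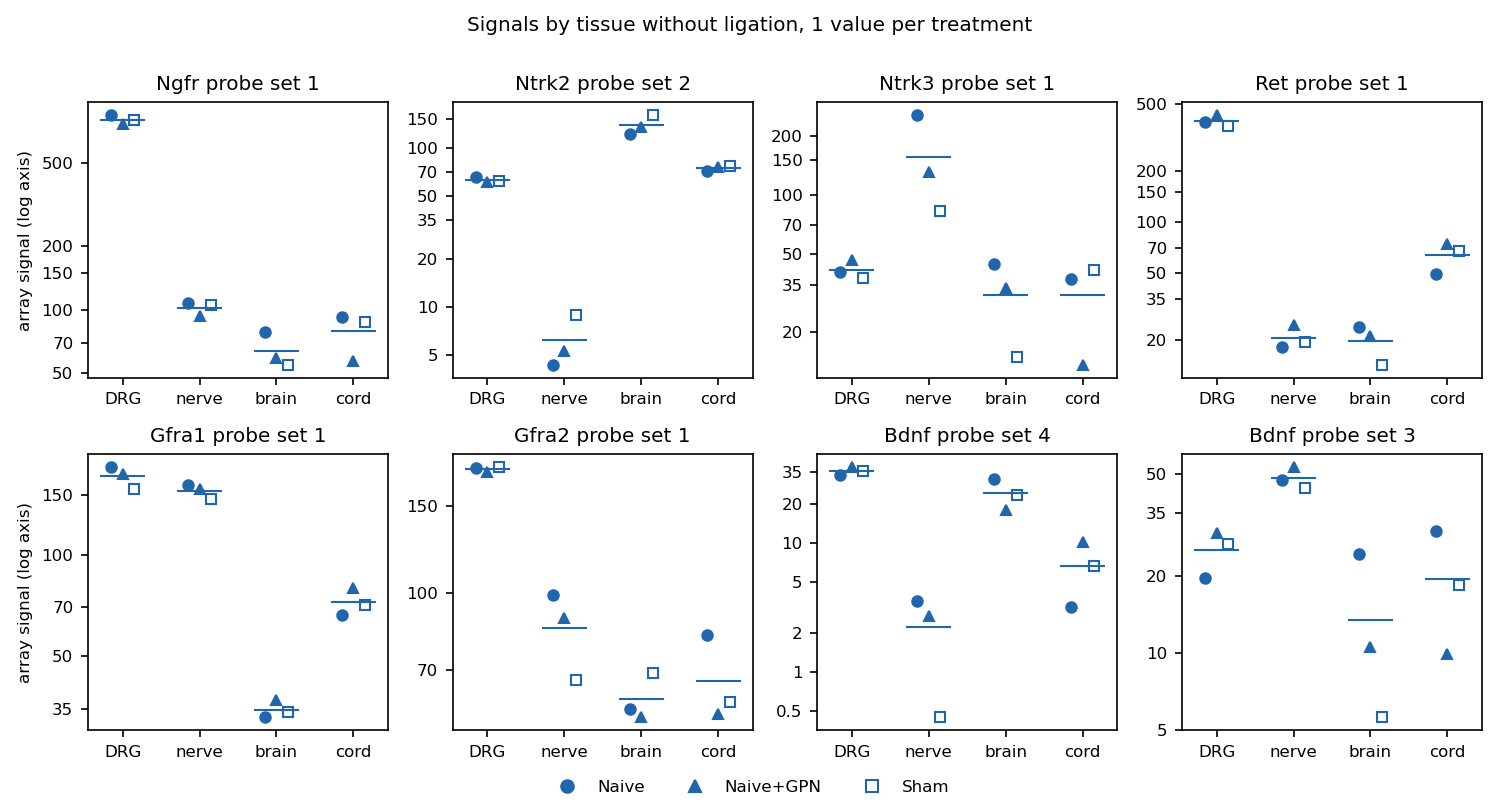
Array signal (log axis, arbitrary units, a different range in each panel) in DRG, sciatic nerve, brain and spinal cord for 8 member probe sets. Each symbol is 1 treatment without ligation, averaged over its levels and sides, and the line is their mean. Ret and Ngfr stand highest in DRG, Ntrk2 probe set 2 in brain and Ntrk3 in nerve, and Bdnf probe sets 4 and 3 place DRG and nerve in opposite orders.

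In the ligated sciatic nerve, Ngfr and Gfra1 rose several fold, and Bdnf read higher on a pair of its probe sets that were dim in the other nerves. Ngfr probe set 1 read 1793 and 1596 in the SNL and SNL+GPN nerves, against 131, 115 and 133 in the Naive, Naive+GPN and Sham nerves. Both ligated pools lay above every DRG pool of the series, on this 1 probe set whose highest other reading was 1048. The rise was 12.9-fold on the log2(signal + pseudocount) scale (log2 3.68, SE 0.17, adjusted p = 0.000739). Probe set 2 gave 204 and 137 in the SNL and SNL+GPN nerves and 46.0, 136 and 87.9 in the Naive, Naive+GPN and Sham nerves, a difference that did not pass (log2 0.97, SE 0.41, adjusted p = 0.248).

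Gfra1 probe set 1 read 1039 and 1060 in the SNL and SNL+GPN nerves, against 181, 180 and 149 in the Naive, Naive+GPN and Sham nerves. Probe set 2 read 418 and 344 in the SNL and SNL+GPN nerves, against 52.6, 56.1 and 41.3 in the Naive, Naive+GPN and Sham nerves. Neither set of pools overlapped, and the 2 probe sets of this gene followed each other over the 52 pools (Pearson r 0.92). In the nerve, ligated and other pools did not overlap in 13 of 14 member probe sets tested and in 38.7% of all tested. The 13 include Bdnf probe sets 2 and 4, which were above the filter on low signals only in the ligated nerves and so had to differ. The rises were 6.03-fold (log2 2.59, SE 0.17, adjusted p = 0.00247) and 6.93-fold (log2 2.79, SE 0.20, adjusted p = 0.00287).

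Bdnf probe set 4 read 28.6 and 26.2 in the SNL and SNL+GPN nerves, against 1.70, 3.04 and 0.497 in the Naive, Naive+GPN and Sham nerves. The ligated nerves lay within the DRG range of this probe set, 17.6 to 62.2, whereas the other nerves were among its lowest pools (log2 2.12, SE 0.37, adjusted p = 0.0234). Bdnf probe set 2 read 35.3 and 41.3 in the SNL and SNL+GPN nerves, against 5.24, 11.0 and 12.3 in the Naive, Naive+GPN and Sham nerves (log2 1.54, SE 0.31, adjusted p = 0.0358). Both probe sets were above the filter on low signals in the 2 ligated nerves and in 0 of the other 3, so they entered the test only through the pools where they were high and had to differ, and their p values lend no support. With no filter Bdnf probe set 2 missed the threshold (adjusted p = 0.0652). The fold is understated where a signal lies below the pseudocount of 5.98. On probe set 3 the order was opposite, with 36.9 and 39.8 in the SNL and SNL+GPN nerves and 43.4, 56.0 and 56.1 in the Naive, Naive+GPN and Sham nerves, and this did not pass (log2 -0.38, SE 0.20, adjusted p = 0.362). Probe set 1, the strongest of the gene, was tested in the nerve and did not pass either.

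No test of a kinase receptor passed in the nerve. Ret probe sets 1 and 2 were too dim in nerve to be tested: probe set 1 read 2.52 and 5.24 in the SNL and SNL+GPN nerves and 18.2, 14.3 and 12.3 in the Naive, Naive+GPN and Sham nerves. Ret probe set 3 was tested and did not pass (log2 -0.32, SE 0.20, adjusted p = 0.444). Ntrk2 probe set 1 read 39.1 and 41.6 in the SNL and SNL+GPN nerves, below the 60.9, 82.8 and 79.8 of the Naive, Naive+GPN and Sham nerves, and missed the threshold (log2 -0.80, SE 0.20, adjusted p = 0.0802). Ntrk3 probe set 1 read 79.8 and 90.8 in the SNL and SNL+GPN nerves beside the uneven values of the other nerves given above (log2 -0.90, SE 0.53, adjusted p = 0.413), and no Gfra2 probe set passed.

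In the ligated nerve 5 member probe sets passed as higher and 0 as lower among 14 tested, where 4.7% of all probe sets tested passed; 2 of the 5 are the Bdnf probe sets whose direction the filter fixed, and the other 3 belong to Ngfr and Gfra1. The summed muscle signal was 943 in the SNL nerve and 9043 in the SNL+GPN nerve, against 20803, 12049 and 10485 in the Naive, Naive+GPN and Sham nerves, and none of the 7 muscle markers passed by itself. Gap43, Jun and Sox4, which Schwann cells express after losing axon contact, rose in the same nerves (3 of 5 tested markers of that state), and the myelin gene Prx fell; their part in the receptor changes was not tested. With the muscle signal as a covariate no member passed, at log2 3.60 and adjusted p = 0.0531 for Ngfr probe set 1, log2 2.64 and 0.102 for Gfra1 probe set 1, and log2 2.07 and 0.358 for Bdnf probe set 4. Without the SNL pool, which left the SNL+GPN nerve alone, none passed either and Bdnf was below the filter, at log2 3.60 and adjusted p = 0.0617 for Ngfr probe set 1 and log2 2.61 and 0.0677 for Gfra1 probe set 1, while without the SNL+GPN pool the count was 3. Bdnf probe set 2 also missed the threshold without the Naive (adjusted p = 0.0605) or Naive+GPN pool (0.0681).

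**Figure D2:**
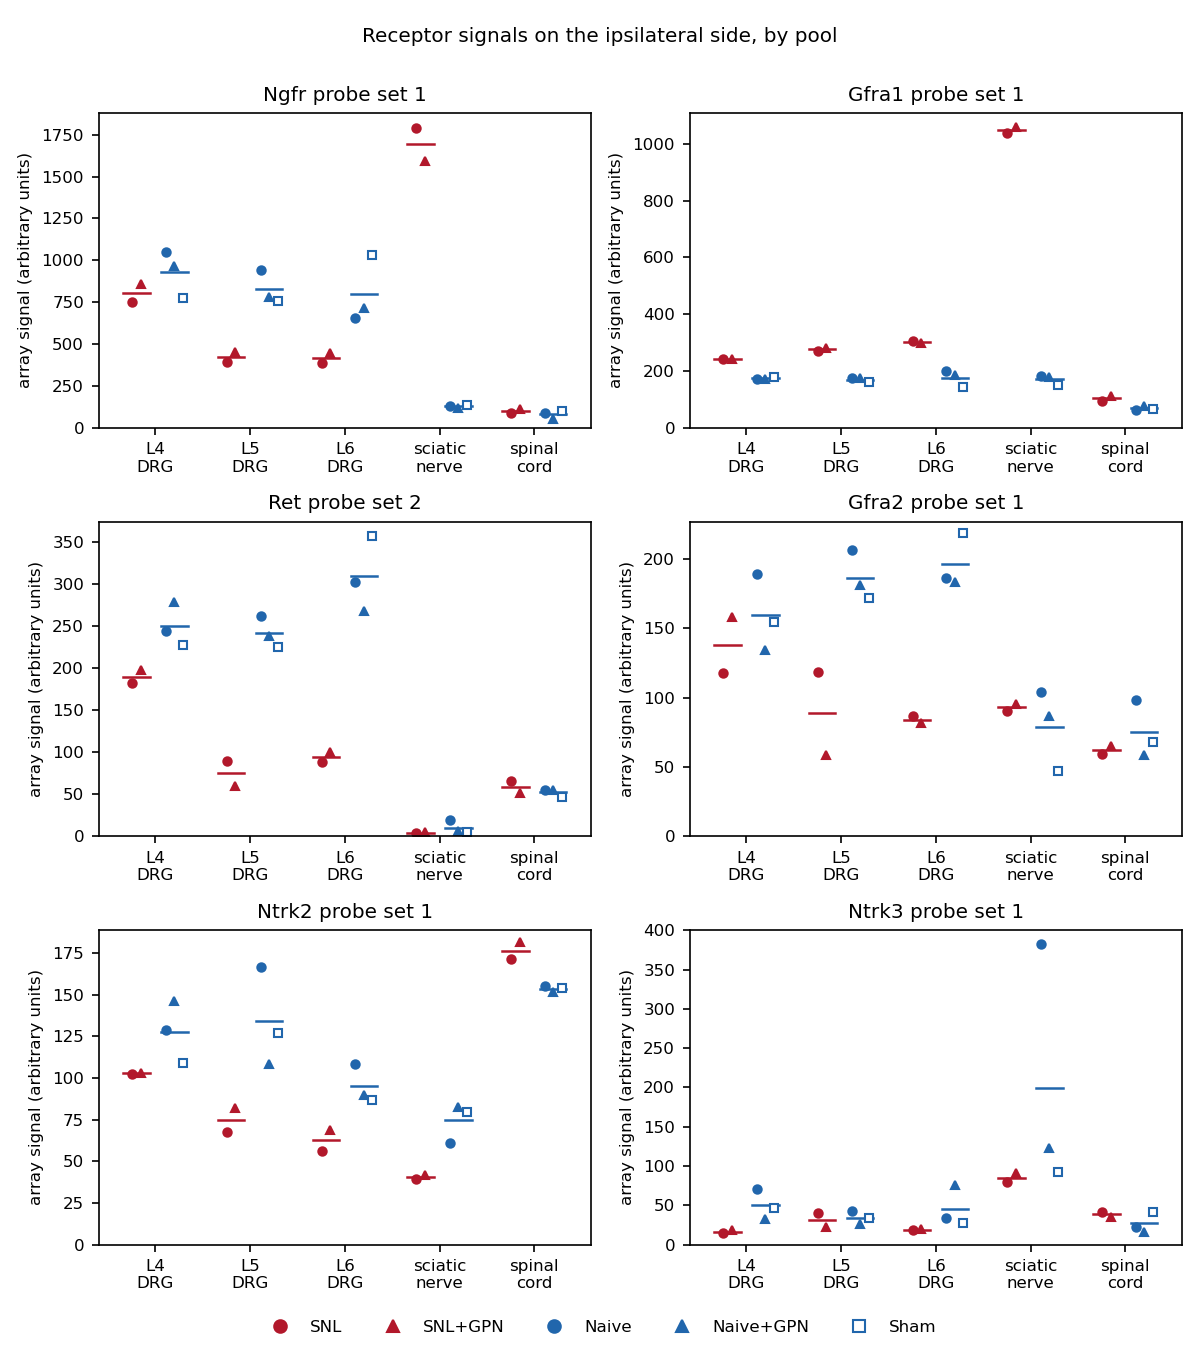
Array signal (linear axis from 0, arbitrary units) of 6 receptor probe sets in the ipsilateral tissues. Red symbols are the ligated pools and blue symbols the pools without ligation, 1 symbol a pool, with a line at the group mean. Ngfr and Gfra1 stand highest in the ligated nerve, and Ret and Gfra2 are low in the ligated L5 and L6 ganglia.

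In the injured L5 and L6 ganglia the same receptors moved otherwise. Ret, Gfra2 and Ngfr fell while Gfra1 rose by less than in the nerve. Bulk RNA cannot tell fewer cells of a type from less RNA per cell. In L5, 2 member probe sets rose and 7 fell of 18 tested, and 15.7% of all probe sets passed. In L6, 3 rose and 5 fell of 18 tested (3 and 3 with median scaling), and 8.69% of all probe sets passed. Ligated and other pools did not overlap in 10 of the 18 member probe sets and in 49.5% of all tested in L5. In L6 they did not overlap in 16 of the 18 and in 42.2% of all.

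Ret probe set 2 read 89.8 and 59.6 in the SNL and SNL+GPN L5 ganglia, against 262, 238 and 225 in the Naive, Naive+GPN and Sham L5 ganglia. In L6 it read 87.7 and 99.5 in the SNL and SNL+GPN pools, against 302, 268 and 356 in the Naive, Naive+GPN and Sham pools. No ligated pool came near the others at either level. The fall was 3.12-fold in L5 (log2 -1.64, SE 0.18, adjusted p = 0.00224) and 3.14-fold in L6 (log2 -1.65, SE 0.18, adjusted p = 0.00234). Ret probe set 1 fell too, by 0.88 in L5 (SE 0.12, adjusted p = 0.00528) and by 1.06 in L6 (SE 0.21, adjusted p = 0.0195) on the log2 scale. Ret probe set 3 fell in L5 (log2 -0.66, SE 0.15, adjusted p = 0.0256) and did not pass in L6 (log2 -0.89, SE 0.36, adjusted p = 0.179), where it read 63.6 and 59.5 in the SNL and SNL+GPN pools and 91.2, 85.5 and 215 in the Naive, Naive+GPN and Sham pools.

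The neurturin co-receptor Gfra2 fell beside Ret. Its probe set 1 read 119 and 58.8 in the SNL and SNL+GPN L5 ganglia, against 206, 182 and 172 in the Naive, Naive+GPN and Sham L5 ganglia (log2 -1.10, SE 0.26, adjusted p = 0.0298). In L6 it read 86.8 and 81.2 in the SNL and SNL+GPN pools, against 186, 184 and 219 in the Naive, Naive+GPN and Sham pools (log2 -1.16, SE 0.17, adjusted p = 0.006). The ligated pools were the lower ones at both levels, but in L5 they were themselves unequal. Gfra2 probe set 2 fell in L6 (log2 -1.20, SE 0.22, adjusted p = 0.0152) and not past the threshold in L5 (log2 -0.38, SE 0.22, adjusted p = 0.285), and probe set 3 passed at neither level.

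Gfra1 went the other way. Probe set 1 read 271 and 282 in the SNL and SNL+GPN L5 ganglia, against 173, 175 and 159 in the Naive, Naive+GPN and Sham L5 ganglia (log2 0.69, SE 0.11, adjusted p = 0.00864). That L5 call was lost with the deposited scaling (log2 0.51, adjusted p = 0.121) and with median scaling (log2 0.45, adjusted p = 0.0714). In L6 it read 305 and 299 in the SNL and SNL+GPN pools, against 199, 185 and 141 in the Naive, Naive+GPN and Sham pools (log2 0.78, SE 0.19, adjusted p = 0.0413). Every ligated pool was above every other pool of its level, and the second probe set rose as well, 1.95-fold in L5 (log2 0.96, SE 0.17, adjusted p = 0.0105) and 2.13-fold in L6 (log2 1.09, SE 0.25, adjusted p = 0.037).

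Gfra1 and Ret act together as a receptor yet moved in opposite directions in these ganglia. For each, the 250 bases before 1 annotated start are shown 5′ to 3′ from RefSeq's GRCr8 assembly. Both genes lie on the minus strand, and matches to the motifs searched are in capitals. The Gfra1 window is chr1:267555812-267556061 and the Ret window chr4:153040557-153040806. The Gfra1 window lies inside the span of its gene, chr1:267325297-267557037, so the start used is not the outermost. The Ret window borders the outer end of its gene at 153040556.
Gfra1: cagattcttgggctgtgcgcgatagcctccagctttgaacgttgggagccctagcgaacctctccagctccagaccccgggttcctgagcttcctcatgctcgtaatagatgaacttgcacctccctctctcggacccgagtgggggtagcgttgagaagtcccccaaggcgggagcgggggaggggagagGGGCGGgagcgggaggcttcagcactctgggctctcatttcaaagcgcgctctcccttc
Ret: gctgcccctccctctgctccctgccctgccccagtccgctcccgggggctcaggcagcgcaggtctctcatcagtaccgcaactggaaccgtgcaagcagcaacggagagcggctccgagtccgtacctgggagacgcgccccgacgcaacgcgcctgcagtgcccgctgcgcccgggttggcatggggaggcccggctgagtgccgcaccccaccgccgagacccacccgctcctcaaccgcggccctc
Both windows were rich in G and C, at 62.0% in Gfra1 and 72.8% in Ret. The motifs searched on both strands were the GC box GGGCGG, the AP-1 site TGANTCA, the E-box CACGTG and the CRE core TGACG. The capitals in Gfra1 mark 1 GC box that begins at position -59 from the start and overlaps no other motif, and the Ret window held none of the 4 strings, which says only that these letters are not in it. Among 33469 windows of the same length in the RefSeq table, 30.5% held a GC box, 6.34% an AP-1 site, 5.59% an E-box and 18.2% a CRE core.

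Ngfr, the member that rose most in the nerve, fell in the ganglia. Probe set 1 read 391 and 454 in the SNL and SNL+GPN L5 ganglia, against 945, 782 and 756 in the Naive, Naive+GPN and Sham L5 ganglia (log2 -0.96, SE 0.13, adjusted p = 0.00533). In L6 it read 388 and 447 in the SNL and SNL+GPN pools, against 652, 715 and 1031 in the Naive, Naive+GPN and Sham pools (log2 -0.90, SE 0.22, adjusted p = 0.0407). The ligated ganglia lay below all others of their level. The second Ngfr probe set did not pass in L5 (log2 -0.21, SE 0.17, adjusted p = 0.426) or in L6 (log2 -0.48, SE 0.18, adjusted p = 0.14).

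Among the Trk receptors, Ntrk2 fell on a pair of probe sets in L5. Probe set 1 read 67.3 and 82.0 in the SNL and SNL+GPN L5 ganglia, against 167, 109 and 127 in the Naive, Naive+GPN and Sham L5 ganglia (log2 -0.79, SE 0.19, adjusted p = 0.0342). Probe set 2 read 29.4 and 40.4 in the SNL and SNL+GPN L5 ganglia, against 57.2, 53.7 and 55.1 in the Naive, Naive+GPN and Sham L5 ganglia (log2 -0.60, SE 0.16, adjusted p = 0.0458). In L6 the differences had the same sign without passing, at log2 -0.57 (SE 0.19, adjusted p = 0.109) and -0.85 (SE 0.28, adjusted p = 0.105). Ntrk3 probe set 1 passed at neither level, with log2 -0.14 (SE 0.27, adjusted p = 0.756) in L5 and -0.95 (SE 0.37, adjusted p = 0.164) in L6.

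Bdnf passed the test in the ganglia on probe set 3 in L6, where it read 62.2 and 52.3 in the SNL and SNL+GPN pools, against 11.4, 32.0 and 13.8 in the Naive, Naive+GPN and Sham pools (log2 1.42, SE 0.34, adjusted p = 0.0417). In L5 this probe set read 31.4 and 32.9 in the SNL and SNL+GPN pools and 18.2, 22.8 and 21.8 in the Naive, Naive+GPN and Sham pools (log2 0.51, SE 0.17, adjusted p = 0.0885). It is the incomplete probe set that also disagreed on tissues, and in L6 it was above the filter in 2 ligated pools and 1 other. Probe set 4, which rose in nerve, did not pass in L5 (log2 0.20, SE 0.17, adjusted p = 0.46) or in L6 (log2 -0.17, SE 0.19, adjusted p = 0.648), and Gdnf was too dim to be tested at either level.

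**Figure D3:**
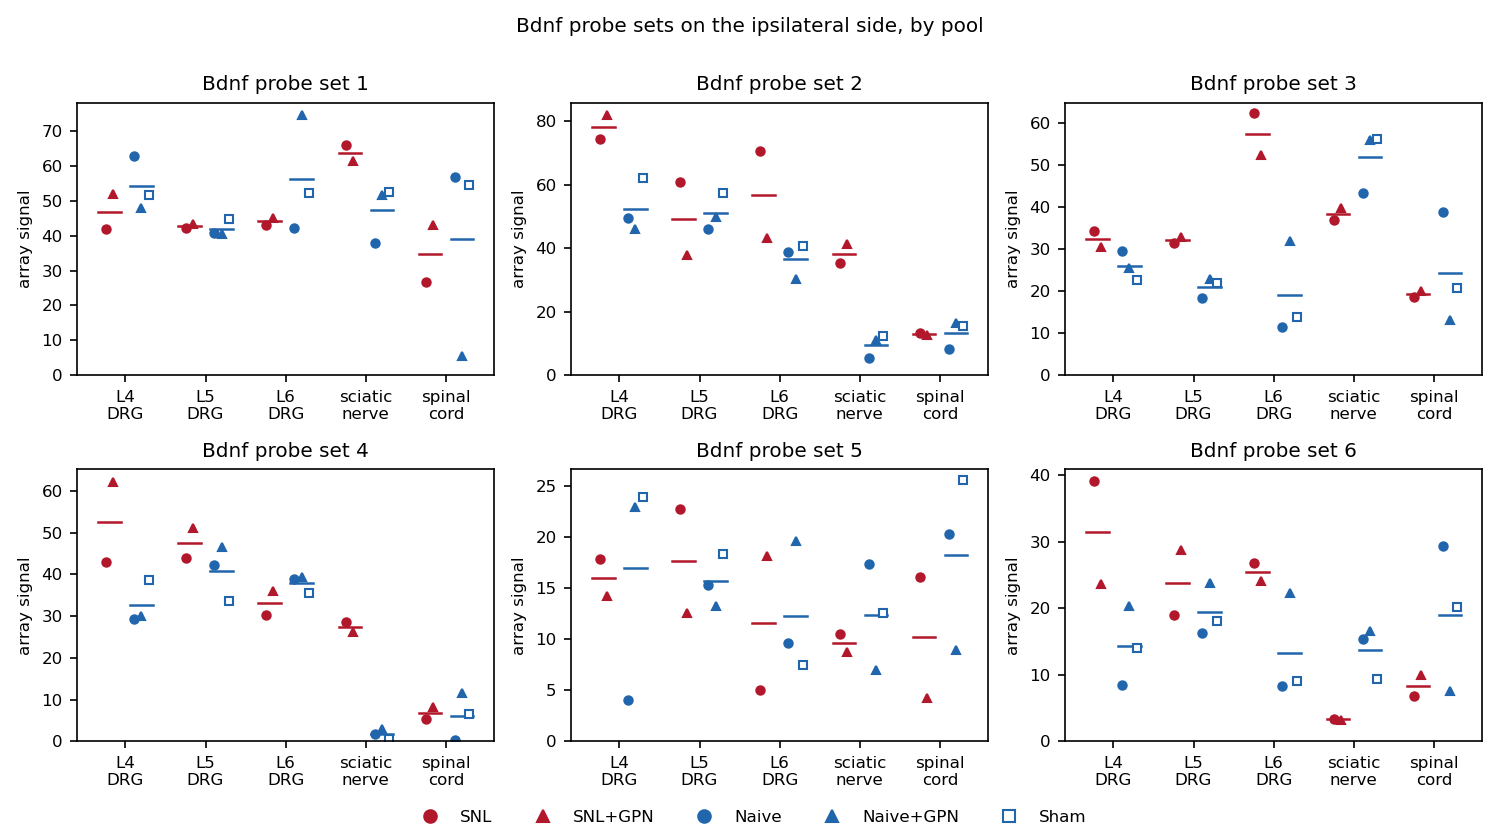
Array signal (linear axis from 0, arbitrary units) of Bdnf probe sets 1 to 6 in the ipsilateral tissues. Red symbols are ligated pools, blue symbols pools without ligation, 1 symbol a pool, and lines are group means. Probe sets 2 and 4 are high in the ligated nerve, whereas probe set 3 is high in the ligated L6 ganglion and not in the ligated nerve.

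The make-up of the ganglia shifted in the same pools. In L5 the summed signal of 8 neuron markers ranged from 11312 to 12619 in ligated pools and from 18863 to 20052 in the others, and in L6 from 8595 to 10324 in ligated pools and from 18385 to 19843 in the others. All 6 nociceptor markers and 5 of 8 neuron markers fell at both levels, 5 of 6 macrophage markers rose at both levels, and Gap43, Jun and Sox4 rose. Of the fibroblast markers 3 of 5 rose in L5, and none of the 7 muscle markers passed there although their median log2 change was 1.96. With the muscle signal as a covariate in limma, Gfra2 probe set 1, Ret probe set 3 and Ntrk2 probe set 2 missed the threshold in L5. Their adjusted p values were 0.0901, 0.0912 and 0.065. In L6, Gfra1 probe sets 1 and 2 and Bdnf probe set 3 missed it (adjusted p = 0.0534, 0.0728 and 0.0723). All kept their direction. The part of the other markers in the changes of Ret, Gfra2, Ngfr and Gfra1 was not tested. The GAPDH 3′ to 5′ signal ratio, a measure of RNA integrity, also separated the groups, at 1.01 to 1.05 in ligated and 1.13 to 1.26 in other L5 pools and at 1.08 to 1.10 in ligated and 1.21 to 1.49 in other L6 pools. In nerve it ran from 1.61 to 1.92 in ligated pools and from 1.60 to 7.38 in the others.

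Single pools carried part of the ganglion calls. Ngfr probe set 1 and Ret probe sets 1 and 2 passed in L5 whichever pool was left out, and Ret probe set 2 did so in L6. In L5, Gfra1 probe set 1 missed the threshold without the SNL pool (log2 0.72, adjusted p = 0.0552) and Gfra1 probe set 2 without the SNL+GPN pool (log2 0.80, adjusted p = 0.056). Gfra2 probe set 1 and Ret probe set 3 each missed it without any 1 of 4 pools, with adjusted p from 0.0683 to 0.0817 and from 0.0723 to 0.135, as did Ntrk2 probe sets 1 (0.0583 to 0.186) and 2 (0.0981 to 0.226). In L6, the count was 1 without SNL, 4 without SNL+GPN, 2 without Naive and 5 without Naive+GPN. Gfra2 probe set 1 was lost there without the SNL pool (log2 -1.21, adjusted p = 0.0532), Ret probe set 1 without the SNL or the Naive pool (0.15 and 0.0569), and the other L6 calls without 3 or 4 of the pools, with adjusted p up to 0.259. With median scaling Ngfr probe set 1 (log2 -0.73, adjusted p = 0.179) and Ret probe set 1 (log2 -0.99, adjusted p = 0.0578) missed the threshold in L6, and with the deposited scaling Ntrk2 probe set 2 did so in L5 (log2 -0.61, adjusted p = 0.0688). With the deposited scaling no member passed in L6, where Ret probe set 2 had log2 -2.14 and adjusted p = 0.204.

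**Figure D4:**
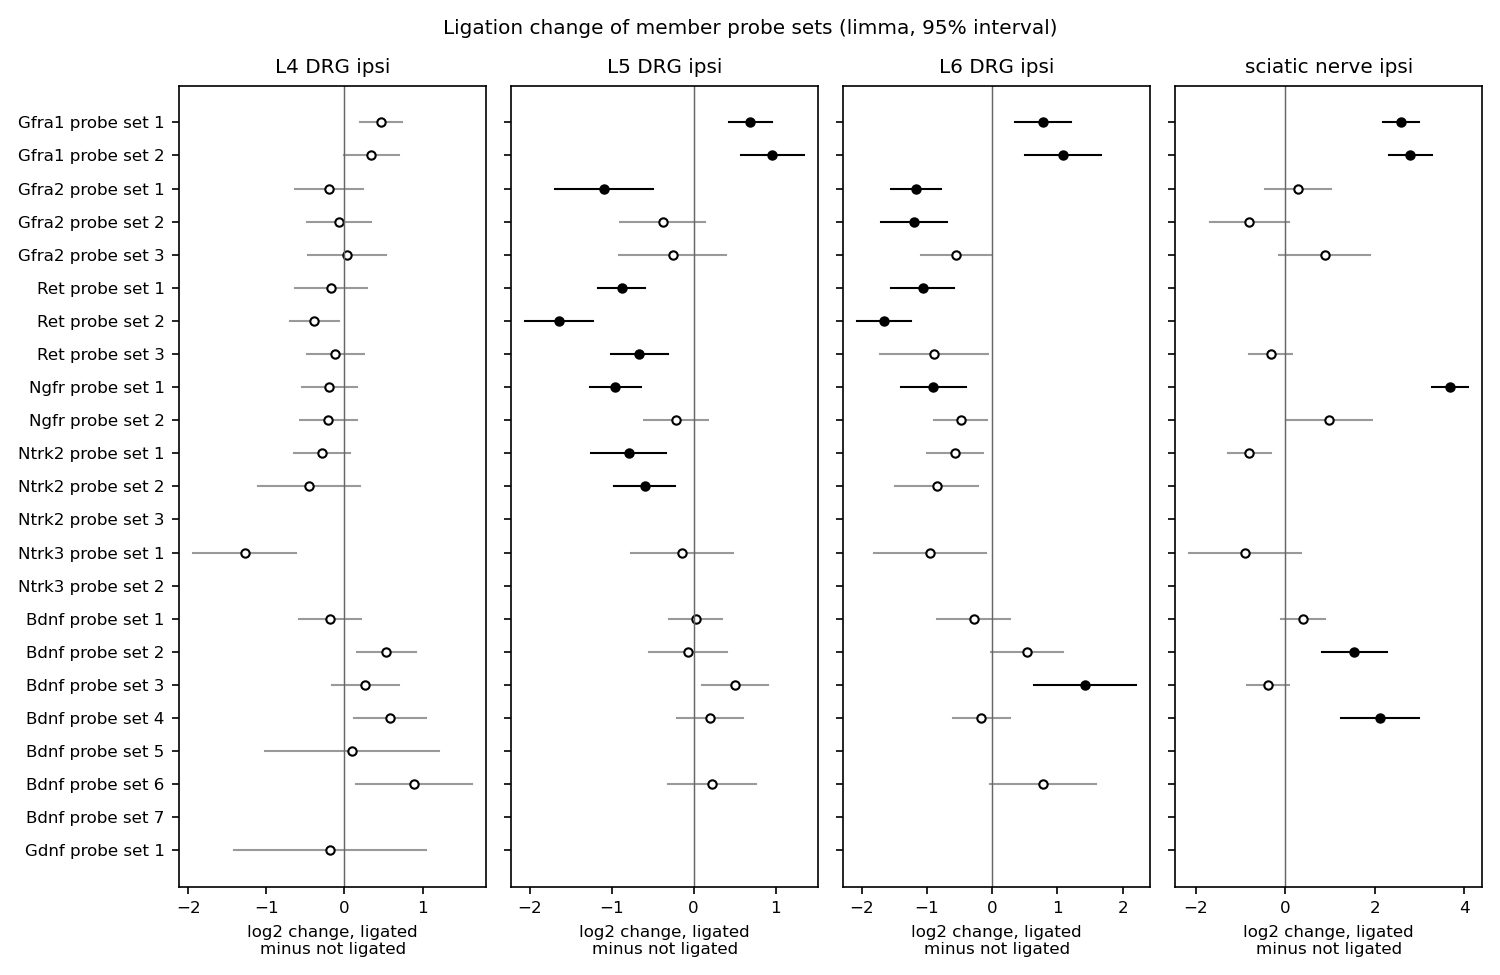
Change with ligation (log2, ligated minus not ligated) of each tested member probe set in 4 ipsilateral tissues, with 95% intervals from limma. Filled points passed an adjusted p of 0.05, and each panel has its own axis range. Ret, Gfra2 and Ngfr lie left of 0 and Gfra1 right of 0 in L5 and L6, all Ngfr and Gfra1 points lie right of 0 in nerve, and no point is filled in L4.

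Whether ganglion and nerve differed in their response was tested on the difference itself, the mean of the L5 and L6 changes minus the nerve change of the same treatments. It was -4.61 for Ngfr probe set 1 (SE 0.27, adjusted p = 0.00311), -1.86 for Gfra1 probe set 1 (SE 0.22, adjusted p = 0.0173) and -2.10 for Bdnf probe set 4 (SE 0.28, adjusted p = 0.0222). Thus Ngfr changed in opposite directions in the tissues, and Gfra1 rose in both but more in nerve. These 3 were the members that passed among 20 tested, and 1.81% of all probe sets passed; with quantile normalization over all 52 arrays 1 was above 0 and 3 below. Gfra1 probe set 2 (log2 -1.77, SE 0.34, adjusted p = 0.0539) and Bdnf probe set 3 (log2 1.34, SE 0.25, adjusted p = 0.0524) fell just short. Without the SNL or the SNL+GPN pool none passed, with adjusted p = 0.0914 and 0.0588 for Ngfr, while Ngfr alone passed without Naive or without Sham, and Bdnf probe set 4 missed it without Naive+GPN too (0.0508).

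The spared L4 ganglion beside the injured ones showed 0 calls among 20 member probe sets tested (limma, where 0% of all probe sets passed). Of these 20, 6 had an unadjusted p below 0.05, and so did 2349 of all 16762 probe sets tested. Gfra1 probe set 1 read 242 and 242 in the SNL and SNL+GPN L4 ganglia and 172, 173 and 178 in the Naive, Naive+GPN and Sham L4 ganglia, without overlap (log2 0.47, SE 0.12, adjusted p = 0.161). Ret probe set 2 read 181 and 197 in the SNL and SNL+GPN pools and 243, 279 and 227 in the Naive, Naive+GPN and Sham pools, again without overlap (log2 -0.39, SE 0.14, adjusted p = 0.271). Such separation was common in L4, in 9 of the 20 member probe sets and in 31.6% of all tested. Bdnf probe set 4 read 42.9 and 62.2 in the SNL and SNL+GPN pools and 29.4, 30.0 and 38.6 in the Naive, Naive+GPN and Sham pools (log2 0.59, SE 0.20, adjusted p = 0.261). Ntrk3 probe set 1 had the lowest adjusted p in L4, 0.138, at 14.1 and 18.6 in the SNL and SNL+GPN pools and 70.7, 32.6 and 46.8 in the Naive, Naive+GPN and Sham pools.

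The change of the injured ganglia minus that of L4 tests whether injured and spared ganglia differ. It passed for 0 of 20 member probe sets (limma, where 0% of all probe sets passed). Its unadjusted p was below 0.05 for 6 of the 20 and for 3647 of all 18371 probe sets tested. The lowest adjusted p was that of Ret probe set 2, at 0.0927 (log2 -1.26, SE 0.22, interval -1.80 to -0.72). For Gfra1 probe set 1 the difference was 0.27 (SE 0.19, interval -0.18 to 0.72, adjusted p = 0.462). For Ngfr probe set 1 it was -0.73 (SE 0.25, interval -1.33 to -0.14, adjusted p = 0.188).

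In the ipsilateral spinal cord 0 of 17 tested member probe sets passed (limma, where 0% of all probe sets passed). Of all 16759 probe sets tested, 446 had an unadjusted p below 0.05, among them 1 member probe set. That was Gfra1 probe set 1, at 93.8 and 113 in the SNL and SNL+GPN cords and 61.6, 75.2 and 66.3 in the Naive, Naive+GPN and Sham cords (log2 0.57, SE 0.16, adjusted p = 1.00). In the contralateral ganglia 0 members passed in L4 (20 tested, 0% of all probe sets), in L5 (19 tested, 0.0122%) and in L6 (17 tested, 0.0365%), and 0, 3 and 7 of them had an unadjusted p below 0.05. Among all probe sets, 671 of 16774, 1426 of 16351 and 1717 of 16450 met that unadjusted cut in L4, L5 and L6. The contralateral L5 and L6 tests had 2 pools a group, as the Naive+GPN L5 and the Naive L6 pools were not analysed here. Ret probe set 2 read 175 and 167 in the SNL and SNL+GPN contra L5 ganglia and 228 and 216 in the Naive and Sham ones (log2 -0.36, SE 0.13, adjusted p = 0.518), whereas in contra L6 it read 287 and 282 in the SNL and SNL+GPN ganglia and 232 and 235 in the Naive+GPN and Sham ones (log2 0.28, SE 0.15, adjusted p = 0.62).

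The contralateral nerve had 1 ligated pool, SNL+GPN, and no test. That pool was above all 3 nerves without ligation for 12 of 23 member probe sets (24.7% of all probe sets) and below all of them for 5 (22.8%). It was above them by more than their own range, and above the filter, for 4 (5.69%). The probe sets of a gene disagreed: Gfra1 probe set 1 lay above and probe set 2 below the other nerves, and so did Gfra2 probe sets 1 and 2.

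Gabapentin was set against no gabapentin with ligation as a covariate. In the mean of the ipsilateral DRG, 0 of 19 member probe sets passed (limma, where 0% of all probe sets passed) and 0 had an unadjusted p below 0.05. Among all probe sets, 453 of 16692 in DRG and 462 of 16925 in nerve met that unadjusted cut. In the nerve 0 of 14 passed (0% of all probe sets) and 1 did so unadjusted, Gfra2 probe set 2, at 37.5 in SNL+GPN and 54.5 in Naive+GPN nerves against 12.3, 37.5 and 38.9 in SNL, Naive and Sham nerves (log2 0.79, SE 0.27). The intervals of the nerve risers spanned -0.64 to 0.28 for Ngfr probe set 1 and -0.41 to 0.57 for Gfra1 probe set 1. For Ret probe set 2 in DRG the interval was -0.29 to 0.19. A miss of the threshold does not show that gabapentin left these genes as they were.

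The genes whose log2 values followed each member most closely over the 52 pools, taken as the 3 with the highest Pearson r for its strongest probe set, are given as a description, since pools of a tissue share their make-up. Ret was followed by Lxn (r 0.97), by the neurofilament-type protein Prph (0.97) and by Calcb (0.97), a neuropeptide of sensory neurons. Gfra1 was followed by Cyp1b1 (0.94), by Plat (0.93), the tissue plasminogen activator, and by Frmd8 (0.92). Ngfr was followed by Abhd4 (0.94), Igsf3 (0.92) and the lysosomal protease Ctsb (0.92). Gfra2 had Gcnt2 (0.92), Dync1i2 (0.91) and the sensory neuron transcription factor Isl1 (0.89), and Ntrk2 had Faim2 (0.91), Vsnl1 (0.91) and Tubb4a (0.90). Ntrk3 (Scp2, 0.78), Bdnf (Spsb2, 0.69) and Gdnf (Gprc5c, 0.44) had no close partner. Among the members themselves, over the 28 DRG pools Gfra2 and Ret ran together (r 0.74) and Gfra1 ran against both (r -0.73 with Gfra2 and -0.69 with Ret), while over all 52 pools the r of Gfra1 with Ret was 0.20.

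Other genes of these pathways came from fixed lists of 6 further ligands, 12 receptors, 21 adaptors and 8 ligand-processing proteins, each measured by its strongest probe set. Probe sets were analysed for 4 of the ligands, 5 of the receptors, 17 of the adaptors and 8 of the processing genes. Of the receptors, 1 rose and 2 fell of 5 tested in both L5 and L6, where 15.7% and 8.69% of all probe sets passed. Gfra3, the artemin co-receptor that also works through Ret, rose (190.2 and 189 in SNL and SNL+GPN L5 ganglia, against 122, 111 and 102 in Naive, Naive+GPN and Sham ones; log2 0.73, SE 0.13, adjusted p = 0.0102). So Gfra1 and Gfra3 rose in L5 where Gfra2 fell, and Gfra3 in L6 had log2 1.00 (SE 0.15, adjusted p = 0.00766).

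Lingo1, a partner of Ngfr in a receptor complex of neurons, fell (76.3 and 66.9 in SNL and SNL+GPN L5 ganglia, against 189, 150.2 and 185 in Naive, Naive+GPN and Sham ones; log2 -1.21, SE 0.15, adjusted p = 0.00323), and so did the sorting receptor Sorl1 (log2 -0.74, SE 0.13, adjusted p = 0.0111). Both also fell in L6. Of the adaptors, Maged1, which binds Ngfr, rose in L5 (log2 0.52, SE 0.11, adjusted p = 0.0242) and L6 (log2 0.87, SE 0.16, adjusted p = 0.0146), and the docking protein Gab1 rose in L5 (log2 0.69, SE 0.13, adjusted p = 0.0159). That was 2 of 15 adaptors tested in L5 and 1 of 16 in L6, and 0 fell at either level, set beside 15.7% and 8.69% of all probe sets, so these counts are not a result about the adaptors.

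In the nerve 2 of 7 tested processing genes rose and 1 fell, where 4.7% of all probe sets passed, and 0 of the other lists passed. Plat, whose product makes the plasmin that can cut the Bdnf precursor, read 927 and 716 in SNL and SNL+GPN nerves, against 289, 345 and 233 in Naive, Naive+GPN and Sham nerves (log2 1.49, SE 0.22, adjusted p = 0.0139). A2m, a protease inhibitor that binds neurotrophins, read 1784 and 1159 in SNL and SNL+GPN nerves, against 539, 387 and 401 in Naive, Naive+GPN and Sham nerves (log2 1.70, SE 0.25, adjusted p = 0.0124). The proprotein convertase Pcsk6 fell (71.2 and 54.2 in SNL and SNL+GPN nerves, against 182, 221 and 198 in Naive, Naive+GPN and Sham nerves; log2 -1.59, SE 0.20, adjusted p = 0.00744). Plat rose in L5 and L6 as well, and Pcsk6 fell in L5.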

How the data were processed

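Total RNA of 52 pools was hybridised to the 3 arrays (A, B, C) of the rat U34 set, 156 arrays in all. The authors deposited linear signal intensity per probe set, made with MAS5 per the submitters' processing notes, with no version, scaling target or detection calls among the sources. Deposited array medians ran from 13 to 62.2 on A, 8.1 to 47.2 on B and 14.5 to 53.3 on C, so quantile normalization was applied within each set and compartment, after which each compartment was brought to the set's common median. Signals were tested as log2(signal + pseudocount), the pseudocount being the 20th percentile of a set (5.98 for A, 4.70 for B, 6.36 for C), so folds of dim genes are understated. Probe sets above the 40th percentile of their array in at least 2 samples compared were kept, and 177 control probe sets were dropped. Symbols came from the platform annotation, updated for 18122 probe sets through RefSeq gene identifiers; 18178 probe sets had 1 symbol, 391 several and 7633 none, and no member probe set had several.

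limma 3.58.1 (lmFit, eBayes with trend) in R 4.3.3 gave two-sided tests, Benjamini-Hochberg adjusted over all kept probe sets, with a threshold of 0.05. Tissue differences used 1 value per treatment and tissue, and differences between tissues in the ligation change used differences of the same treatment. The sources do not say whether 1 rat gave several tissues. The number of arrays limits the precision. The code was tested on simulated data. Alternatives covered scaling, pseudocount, filter, variance model, covariates and leaving out each pool. Promoter windows and names came from RefSeq tables (GRCr8). Members, lists and tests were chosen with earlier results of these data known. The named genes were all member probe sets, pathway genes past the threshold (at most 4 per role), and the 3 genes most like each member. No paired analysis by replicate number was possible because each treatment had at most 1 pool per tissue and side.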

Additional observations from a re-analysis of the deposited data

Results flagged for a closer look

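The change with ligation differed between the injured ganglia and the sciatic nerve by a test of the difference itself for 3 of 20 member probe sets tested (limma). Of all probe sets tested, 1.81% passed. These calls depended on having both ligated pools, as given above. The values, ganglia minus nerve on the log2 scale, were -4.61 for Ngfr probe set 1, -1.86 for Gfra1 probe set 1 and -2.10 for Bdnf probe set 4.

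The contralateral sciatic nerve had a single ligated pool, SNL+GPN, so it entered no comparison of ligation. In that pool 4 member probe sets were above the filter on low signals and above all 3 contralateral nerves without ligation by more than the range of those 3, a difference that was not tested; 5.69% of all probe sets met the same rule. Ngfr probe set 1 read 138 there, against 88.4, 76.7 and 83.2 in the Naive, Naive+GPN and Sham contralateral nerves. Gfra1 probe set 1 read 163, against 142, 137 and 143 in the Naive, Naive+GPN and Sham nerves, Gfra2 probe set 1 read 105, against 94.6, 91.7 and 94.9 in the Naive, Naive+GPN and Sham nerves, and Bdnf probe set 1 read 75.3, against 47.0, 30.6 and 39.8 in the Naive, Naive+GPN and Sham nerves. Other members lay below all 3: Gfra1 probe set 2 read 33.8, against 39.95, 57.3 and 46.4 in the Naive, Naive+GPN and Sham nerves, Gfra2 probe set 2 read 29.6, against 43.1, 38.8 and 36.5 in the Naive, Naive+GPN and Sham nerves, and Bdnf probe set 4, Ret probe set 1 and Ret probe set 2 were also lower, at 0.312, 11.7 and 3.55. The ipsilateral SNL+GPN nerve had 1596 for Ngfr probe set 1 and 1060 for Gfra1 probe set 1.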

How the results depend on the processing

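Of 927 alternative fits of the 68 member results that passed, 795 kept their direction and their side of the threshold, 131 kept the direction and lost the threshold, and 1 reversed: Gfra1 probe set 2 in nerve minus cord was 0.44 and became -0.20 (adjusted p = 0.404) with the deposited scaling. With that scaling the median of all probe sets, near 0 as reported, ranged from -0.75 in injured ganglia minus L4 to 0.50 in DRG minus nerve, where 17 members passed (13 as reported). With it the count of member probe sets that passed was 1 in ipsilateral L4 (0 as reported), 0 in L6 (8), 5 in contralateral L6 (0) and 6 in ganglia minus nerve (3). The share of all probe sets that passed with that scaling is not given here. These counts therefore do not set the members against all probe sets. In L6 the count was 4 with no filter on low signals, with no variance trend or with gabapentin as a covariate, and 5 with muscle markers as a covariate. In nerve (5 as reported) it was 3 with the pseudocount at the 5th percentile or with gabapentin as a covariate and 0 with muscle markers as a covariate. In ganglia minus nerve it was 6 with the pseudocount at the 40th percentile. Leaving out 1 pool at a time gave 5 to 6 in L5 (9 as reported), 1 to 7 in L6, 0 to 5 in nerve, 0 to 2 in ganglia minus nerve and 7 to 9 in nerve minus cord (11); a lone pool is then assumed to vary like the other group. The causes of these moves were not tested. No paired analysis by replicate number was possible because each treatment had at most 1 pool per tissue and side. With treatment as a block in the tissue differences the counts were 13, 12, 11 and 7, equal to those reported, and Bdnf probe set 4 in nerve minus cord missed the threshold (adjusted p = 0.06). Dim probe sets (Gdnf, Bdnf probe set 7, Ntrk2 probe set 3, Ntrk3 probe set 2) lie near the array floor, where a change could not be detected.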
